A study of Mus musculus with 28 samples.

Results

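Primed distal H3K4me1 regions are stretches of mouse lung tumour chromatin that carried H3K4me1 with no H3K27ac, H3K27me3 or nearby H3K4me3 peak. They were chosen by their peak calls. A candidate region was the bases of chromosomes 1 to 19 covered in both RAS-named H3K4me1 peak lists, with gaps of up to 1 kb closed and a length of 200 bp or more. A region was kept if no H3K27ac peak of either RAS-named list touched it, no H3K27me3 peak of any of the 4 lists touched it, and no H3K4me3 peak of any of the 4 lists lay within 1 kb. The rule left 3493 of 24452 candidate regions (14.3%). Without replicate 3 it left 13167 of 41724 (31.6%), and without replicate 4 it left 13224 of 43175 (30.6%). A single RAS-named replicate then chose the regions, and the H3K4me3 and H3K27me3 lists of the other were left out as well. An H3K4me3 peak lay within 1 kb of 6933 candidates and an H3K27me3 peak touched 789, of which 511 failed on both counts. Of the 17241 regions that passed these 2 criteria, 20.3% had no H3K27ac peak in either RAS-named list.

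H3K4me1 is laid down mainly by the histone methyltransferases MLL3 and MLL4 and is found at enhancers in any state of activity. An enhancer with H3K4me1 and H3K27ac is usually called active, and one with H3K4me1 alone is called primed. H3K79me2, written by DOT1L, lies along transcribed genes, and H3K9me3 marks constitutive heterochromatin and many repeats. The word distal here means only that no H3K4me3 peak, the usual mark of promoters, was close by. No gene annotation of the genome build of these files was used, so the regions were not placed in exons, introns or intergenic sequence, and no tissue marker could be examined.

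The study mapped 6 histone marks by chromatin immunoprecipitation followed by sequencing in lung tumours of mice. Per the labels, all tumours arose after Ad-CMV-Cre, an adenovirus that expresses Cre recombinase from a promoter active in many cell types. One genotype was K-RasLSL-G12D, a mutant K-Ras allele silenced until Cre removes a stop cassette, and the other combined it with floxed Mll4 (K-RasLSL-G12D;Mll4fl/fl). Strain, age and whether a library came from 1 animal or several are not given in the sources used here. Each mark had 4 libraries, each with its own peak list. The 4 inputs were not used here. The labels do not assign a library to a genotype. The deposited lists of replicates 1 and 2 carry MLL in their names and those of replicates 3 and 4 carry RAS, so MLL-named and RAS-named are used below as names of lists and not as groups, and no test was made between them. Nothing says whether replicates were separate tumours, so a spread between lists may be technical. The 24 lists held 950445 peaks, between 5224 and 96068 per list. Depth is unknown, since a peak list holds no read counts, and a missing peak can be low signal or low depth. The Wilson 95% intervals given for shares cover counting error over regions only.

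The primed regions were short and weakly scored. Their median width was 408 bp (quartiles 268 and 866 bp, maximum 26124 bp), and 57.7% were under 500 bp. Together they covered 2.47 Mb. Active distal regions, which met the same criteria except that an H3K27ac peak of both RAS-named lists touched them, numbered 10953 and had a median width of 1047 bp, with 29.5% under 500 bp. The 2795 regions with H3K27ac in a single RAS-named list, called one-list distal below, lay between at 504 bp. Each peak has a score from the authors, read here only as a rank of confidence. The lower of the 2 RAS-named H3K4me1 scores of a region had a median of 80.8 in primed, 88.6 in one-list distal and 123 in active distal regions, and 66.4% of primed regions scored under 100. Width and score were not part of the criteria beyond the 200 bp minimum, but they come from the lists that chose the regions and were not tested.

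At the threshold on length, 9 members were exactly 200 bp long, and 1283 regions that met every other criterion were shorter. At the threshold on H3K4me3, the nearest peak lay 1001 bp from chr9:65197043-65197393 and 1005 bp from chr11:106136218-106137486, both kept. The excluded regions closest to it were chr2:35440463-35440808 and chr17:87841404-87841686, with H3K4me3 peaks at 985 and 968 bp.

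Fewer than 1 in 2 primed regions were touched by an H3K4me1 peak of a given MLL-named list. The list of replicate 1 touched 1027 of 3493 (29.4%, interval 27.9 to 30.9%), where it touched 43.7% of all 24452 candidate regions. The list of replicate 2 touched 1640 (47.0%, interval 45.3 to 48.6%), against 59.5% of all candidates. The mean was 38.2 ± 12.4% (SD, n = 2 lists). It was 21.3% without replicate 3 and 21.7% without replicate 4 in the choice of regions, and 15.5% if 50% of a region had to be covered. The MLL-named lists were shorter than those that chose the regions, with 49595 and 81432 peaks against 96068 and 93258, and the part of list length and depth in these shares was not tested beyond the lists of equal length described below. Both lists touched 799 primed regions (22.9%, against 38.3% of all candidates) and neither touched 1625 (46.5%, against 35.1%). Replicate 1 alone touched 228 (6.53%, against 5.36% of all candidates) and replicate 2 alone 841 (24.1%, against 21.2%).

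Active distal regions were touched more often, at 37.3% in replicate 1 and 55.8% in replicate 2 (46.6 ± 13.0%, SD, n = 2 lists). The primed minus the active distal share was -7.94 percentage points in replicate 1 and -8.82 in replicate 2. The primed share was lower on 17 of 19 chromosomes in each list. One-list distal regions had shares of 27.1% and 43.8%. The mean difference was -8.38 ± 0.625 points (SD, n = 2 lists). It was -13.6 points without replicate 3, -16.3 without replicate 4 and -2.05 for regions of 500 bp or more. If 50% of a region had to be covered, it reversed to 2.86 points. An exact sign-flip permutation test over 2 lists cannot give a p below 0.5, so these differences are given as descriptions.

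**Figure D1:**
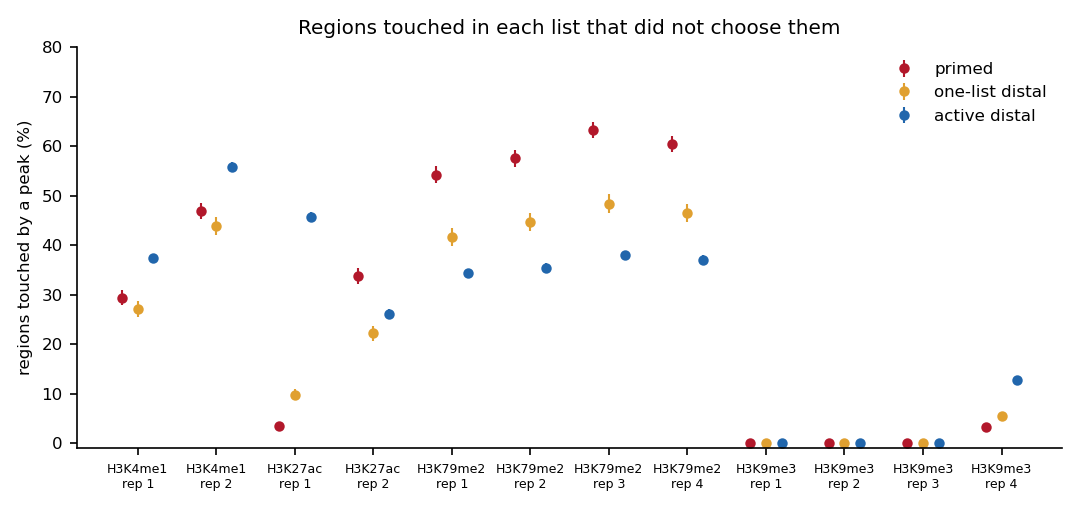
Percentage of primed (red), one-list distal (amber) and active distal (blue) regions touched by at least 1 bp of a peak in each list that did not choose them, with Wilson 95% intervals over regions. Primed regions lie below active distal regions for H3K4me1 and for H3K27ac replicate 1, and above them for H3K27ac replicate 2 and all 4 H3K79me2 lists.

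The direction of this difference turned when regions of like width or score were compared. Among regions under 500 bp, 17.4% of 2016 primed and 13.0% of 3229 active distal regions were touched in replicate 1, and 33.3% and 26.6% in replicate 2. Among regions of 2000 bp or more, 75.1% of 193 primed and 68.6% of 2942 active distal regions were touched in replicate 1, and 88.6% and 86.5% in replicate 2. The primed share was the higher one in all 4 width classes of both lists. Score classes gave the same order. Under a score of 100, primed and active distal shares were 20.6% and 16.4% in replicate 1 and 35.9% and 31.8% in replicate 2.

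With active distal regions weighted to the width make-up of the primed ones, the primed share was higher by 6.20 points in replicate 1 and by 6.89 in replicate 2. With width and score matched together, it was higher by 7.40 and 8.45 points, and it was higher in 10 of 10 classes that held 20 or more regions of each kind. This weighting was chosen after seeing the data. A wide region offers more bases to touch, so the unweighted and the weighted values answer different questions. Where a region was touched, the median share of its bases that were covered was 37.2% in replicate 1 and 46.1% in replicate 2 for primed regions, against 27.96% and 35.96% for active distal regions.

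**Figure D2:**
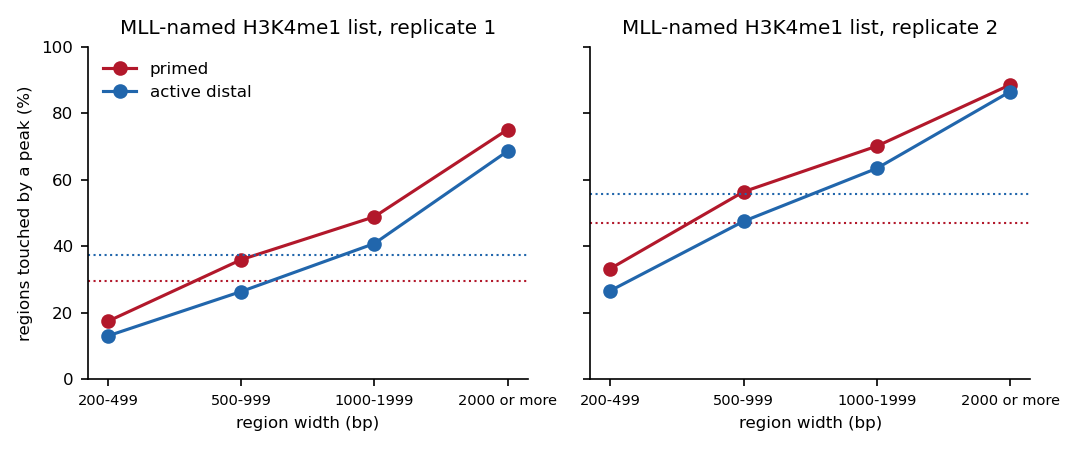
Percentage of primed (red) and active distal (blue) regions touched by each MLL-named H3K4me1 list, by width class; the dotted lines are the shares over all widths. In every width class the primed points lie above the active distal ones, while the dotted lines have the opposite order.

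The primed regions touched by both MLL-named H3K4me1 lists were wider (median 945 bp) and better scored (median 117) than those touched by neither (310 bp and 69.3). Regions touched by exactly 1 list lay between, at 440 bp and 82.7. The widest member, chr12:81308783-81334906 (26124 bp), had best H3K4me1 scores of 442, 724, 2072 and 2087 in replicates 1 to 4. Peaks covered 10726, 13622, 23197 and 24463 of its bases in that order. The MLL-named H3K27ac lists covered 12283 and 13785 bases of it, while neither RAS-named list had a peak there. The nearest RAS-named H3K27ac peaks were 8313 bp away in replicate 3 and 7509 bp in replicate 4. It met the rule through the absence of RAS-named calls at a region strongly marked in the other lists, and low H3K27ac signal cannot be told apart from a missing call.

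The next widest members touched in both lists were chr14:121739166-121748485 (9320 bp, scores 250 and 280 in replicates 1 and 2), chr4:142707539-142714230 (6692 bp, scores 113 and 219) and chr18:6467131-6473350 (6220 bp, scores 181 and 285). Each scored higher in both RAS-named lists, at 407 or more. The widest members touched by neither list were chr18:25776502-25780423 (3922 bp), chr9:77611456-77614980 (3525 bp), chr18:74682008-74685059 (3052 bp) and chr3:9598410-9601433 (3024 bp). The first had RAS-named H3K4me1 scores of 374 and 377, well above the primed median, and no H3K4me1 peak in either MLL-named list.

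H3K27ac in the MLL-named lists gave 2 different answers. The list of replicate 1 touched 124 primed regions (3.55%, interval 2.99 to 4.22%), against 33.6% of all candidates and 45.7% of active distal regions. The list of replicate 2 touched 1178 (33.7%, interval 32.2 to 35.3%), against 31.7% of all candidates and 26.2% of active distal regions. The mean of 18.6 ± 21.3% (SD, n = 2 lists) therefore describes neither list. The primed share was lower than the active distal one on 19 of 19 chromosomes in replicate 1 and higher on 15 of 19 in replicate 2. The primed minus the active distal share was -42.2 points in replicate 1 and 7.53 in replicate 2. With active distal regions weighted to the width and score make-up of the primed ones, it was -30.1 and 19.05 points. The order in replicate 2 was not kept when a single RAS-named replicate chose the regions. Primed and active distal shares were then 18.6% and 19.5% without replicate 3, and 20.8% and 20.7% without replicate 4. In replicate 1 the primed share stayed the lower one in both cases. Both lists touched 64 primed regions (1.83%, against 15.1% of all candidates), and neither touched 2255 (64.6%, against 49.8%).

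The H3K27ac list of replicate 2 stood apart from the other H3K27ac lists in where its peaks lay. Of its peaks, 82.7% touched an H3K79me2 peak of the same replicate, against 43.2%, 40.4% and 36.7% in replicates 1, 3 and 4. Inside the H3K79me2 peaks of replicate 2, 1000 of 2009 primed regions (49.8%) had a replicate 2 H3K27ac peak, and outside them 178 of 1484 (12.0%) did. Active distal regions had nearly the same shares, 51.3% and 12.4%. In replicate 1 the shares of primed regions inside and outside were 4.49% of 1895 and 2.44% of 1598. Whether the replicate 2 H3K27ac library holds signal of H3K79me2 or of transcribed chromatin was not tested. Both MLL-named H3K27ac lists were made of narrow peaks, with median widths of 233 and 216 bp against 2051 and 1702 bp in the RAS-named lists, and covered 19.9 and 22.1 Mb against 114.5 and 112.4 Mb.

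In every class, H3K27ac of replicate 1 was more frequent at regions that also had H3K4me1 of that replicate. Of the 1027 primed regions with replicate 1 H3K4me1, 7.40% had H3K27ac in that replicate, against 1.95% of the 2466 without. The former were also wider, with a median of 756 bp against 347 bp, and the part of width was not tested. The shares were 20.3% and 5.79% in one-list distal regions and 67.4% and 32.8% in active distal regions. The 124 regions had a median width of 736 bp and lay at a median of 5171 bp from an active region. The 64 regions touched by both H3K27ac lists were wider still, with a median of 1150 bp, and closer, with a median of 3646 bp. The widest of them after the chromosome 12 and chromosome 18 regions named above was chr10:6949096-6952663, where H3K27ac peaks covered 194 bases in replicate 1 and 1003 in replicate 2. The chromosome 9 region named above was the next, with 157 and 170 bases covered by H3K27ac although no MLL-named H3K4me1 peak touched it.

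H3K79me2 peaks touched primed regions more often than active distal regions in all 4 H3K79me2 lists, which had no part in choosing them. The shares of primed regions were 54.3%, 57.5%, 63.2% and 60.4% in replicates 1 to 4, against 48%, 48.6%, 51.7% and 50.7% of all candidates. The shares of active distal regions were 34.3%, 35.4%, 38.0% and 37.1%, and the 4 values of each class did not overlap. The means were 58.8 ± 3.83% and 36.2 ± 1.64% (SD, n = 4 lists), with one-list distal regions at 45.3 ± 2.89%. The difference was 22.6 ± 2.20 percentage points (SD, n = 4), between 19.9 and 25.2, and positive in 4 of 4 lists. With the same regions it was 21.8 to 23.5 points when any 1 list was left out. With replicate 3 or replicate 4 left out of the choice of regions as well, so that a single RAS-named list chose them, it was 10.7 and 14.1 points. An exact two-sided sign-flip permutation test over the 4 lists gave p = 0.125, the smallest that 16 sign patterns allow, and 0.25 after Benjamini-Hochberg adjustment over 2 tests, so the design could not pass 0.05. The difference was larger than the spread between lists. It was positive on 19 of 19 chromosomes in every list. With width and score matched it was larger, at 28.2 to 36.2 points. The order depended on which lists chose the regions: with the rule applied to the MLL-named lists, a step added after seeing the data, H3K79me2 touched 52.8 to 59.0% of 1550 primed regions and 65.4 to 84.9% of 1295 active distal regions, against 67.8 to 72.5% of all 10813 regions covered in both MLL-named H3K4me1 lists. Without the H3K27ac list of replicate 2 in that rule, the shares were 62.1 to 74.5% of 2787 primed and 54.6 to 62.3% of 2480 active distal regions, with the primed share higher in all 4 lists. That step moved regions touched by the replicate 2 list alone into the primed class, so it is no independent reading of the order.

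H3K79me2 peaks touched 1487 primed regions (42.6%) in all 4 lists and 1052 (30.1%) in none, against 36.6% and 40% of all candidates and 23.2% and 53.0% of active distal regions. Among primed regions, those in all 4 lists were touched by H3K4me1 of replicates 1 and 2 in 42.2% and 60.4% of cases. The shares were 30.6% and 48.6% for regions in 1 to 3 H3K79me2 lists, and 10.2% and 26.4% for those in none. The order held at matched width. Among primed regions under 500 bp, 26.9% and 44.9% were touched if H3K79me2 was present in all 4 lists, and 7.50% and 20.0% if it was absent. From 1000 bp to under 2000 bp the values were 60.9% and 79.2% against 18.6% and 50.5%. Active distal regions showed the same order, from 58.3% and 76.3% to 22.6% and 41.5%.

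**Figure D3:**
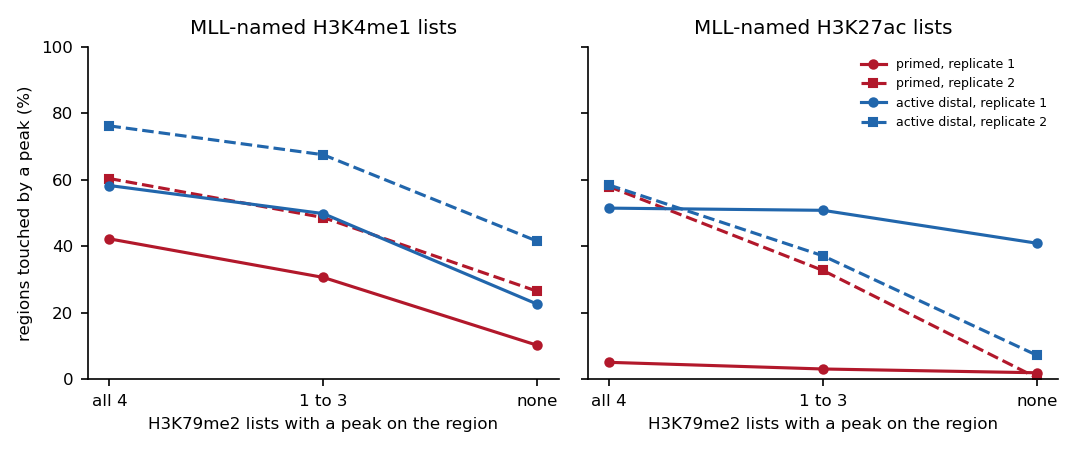
Percentage of primed (red) and active distal (blue) regions touched by the MLL-named H3K4me1 lists (left) and H3K27ac lists (right), by the number of H3K79me2 lists with a peak on the region; circles are replicate 1 and squares replicate 2. H3K4me1 shares fall from all 4 lists to none in both classes, and the replicate 2 H3K27ac share of primed regions falls from 58.0% to 0.380%.

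H3K9me3 was almost absent from primed regions in 3 lists. A single region of 3493 (0.0286%, interval 0.00505 to 0.162%) was touched in each of replicates 1, 2 and 3, where 0.0532%, 0.045% and 0.0327% of all candidates were. Replicate 4 touched 117 primed regions (3.35%), 10.6% of all candidates and 12.9% of active distal regions. Primed and active distal regions differed by -2.37 ± 4.76 percentage points (SD, n = 4 lists), positive in 2 of 4 lists. With the same regions and the replicate 4 list left out, the difference was 0.00733 ± 0.0140 points (SD, n = 3 lists), smaller than its spread. The exact sign-flip permutation p was 0.875, and 0.875 after Benjamini-Hochberg adjustment.

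An active region was defined as bases covered in both RAS-named H3K27ac lists, with gaps of up to 1 kb closed and 200 bp or more, and there were 25928 of them. The median distance from a primed region to the nearest was 9734 bp edge to edge (95% interval of the median 9194 to 10344 bp), with quartiles of 4306 and 24163 bp. It was under 5 kb for 29.5%, under 20 kb for 70.6% and at least 100 kb for 4.04%. The interval of the median takes regions as independent and does not cover the choice of lists. The median was 7631 bp without replicate 3 and 7942 bp without replicate 4. One-list distal regions lay nearer, at a median of 5294 bp. The rule fixes that a primed region holds no RAS-named H3K27ac peak, so its distance is a description. The nearest H3K4me3 peak was at a similar median distance for primed regions (18536 bp) and active distal regions (19620 bp). The nearest other primed region was 30257 bp away in the median.

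The farthest members were chr6:141219458-141219869, at 609395 bp, and chr11:7078944-7079161, at 551696 bp. An active region needs both RAS-named lists, and the nearest H3K27ac peak of a single list was closer. It lay 454768 bp (replicate 3) and 56309 bp (replicate 4) from the first, and 497242 and 6574 bp from the second. The nearest was chr2:101633862-101634113, at 0 bp because gap closing joined active stretches across it, followed by chr9:13231808-13232023 at 49 bp. All 4 were narrow, between 216 and 412 bp.

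The share of primed regions touched by H3K4me1 was lowest in the class farthest from active regions in both MLL-named lists. In replicate 1 the share was 31.5% of 1031 regions under 5 kb, 33.3% of 1436 at 5 to 20 kb, 23.7% of 885 at 20 to 100 kb and 9.93% of 141 at 100 kb or more. In replicate 2 the shares were 47.8%, 49.6%, 43.2% and 37.6%. The first minus the last class was 15.9 ± 8.04 points (SD, n = 2 lists). It was 10.3 points without replicate 1, 9.01 without replicate 3, 7.93 without replicate 4, and 8.39 for regions at least 5 kb from H3K4me3. It was 6.78 points if 50% of a region had to be covered. Higher values were 22.0 points without replicate 2, 28.9 for regions of 500 bp or more, and 31.4 with RAS-named H3K4me1 scores of 100 or more. Among regions under 500 bp the replicate 2 shares hardly differed between near and far, at 31.9%, 36.0%, 31.2% and 31.4% from the nearest class to the farthest. The replicate 1 shares of these narrow regions were 17.4%, 21.3%, 13.5% and 5.81%, with 86 regions in the last class. H3K27ac of replicate 1 went from 5.92% to 0 of 141 regions over the same classes, and the replicate 2 share went from 44.5% to 0.709%. For the count of 0, the share allowed was taken as 3 of 141 (2.13%), which is not a Wilson bound. H3K79me2 moved with distance too, from 76.0% to 8.51% in replicate 3.

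Split by H3K79me2, the share changed little with distance under 100 kb in replicate 1. Primed regions with at least 1 H3K79me2 list were touched in replicate 1 at 36.9%, 39.6% and 35.4% in the first 3 distance classes, and those with none at 8.29%, 10.8% and 10.9%. Beyond 100 kb only 19 of the 141 regions had H3K79me2, 15.8% of them touched, against 9.02% of the 122 without. In replicate 2 the regions with H3K79me2 were touched at 53.8%, 57.3%, 56.6% and 36.8% from near to far. The regions without H3K79me2 were touched at 21.8%, 22.2%, 28.4% and 37.7%, with the highest share in the farthest class. H3K27ac of replicate 2 touched 54.4%, 49.5%, 35.0% and 5.26% of the regions with H3K79me2, from near to far. Without H3K79me2 its shares were 1.55%, 0%, 0.237% and 0%.

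**Figure D4:**
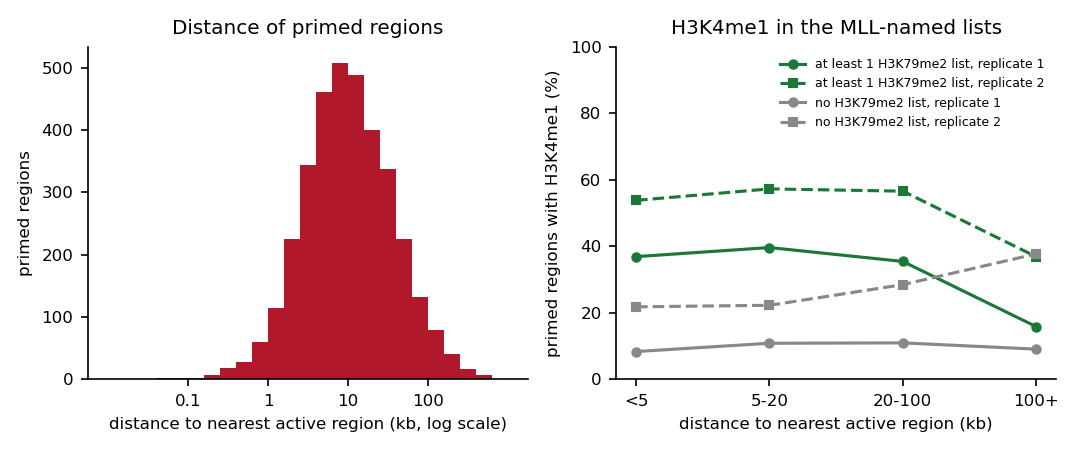
Left, number of primed regions by distance to the nearest active region on a log scale (the 1 region at 0 is not drawn). Right, percentage of primed regions touched by each MLL-named H3K4me1 list, by distance class, for regions with at least 1 (green) or no (grey) H3K79me2 list; circles are replicate 1 and squares replicate 2. Green points lie above grey ones in every class under 100 kb.

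The RAS-named lists hold their H3K4me1 by construction at these regions, so their share there is no measurement. Regions were therefore chosen again with the H3K4me1 and H3K27ac lists of a single RAS-named replicate and read in the H3K4me1 list of the other, a step added after seeing the data. The H3K4me3 and H3K27me3 criteria still used all 4 lists. Of 13112 primed regions chosen in replicate 3, 42.0% were touched in RAS-named replicate 4, 15.9% in MLL-named replicate 1 and 27.4% in MLL-named replicate 2. Of 12685 chosen in replicate 4, 41.5% were touched in RAS-named replicate 3, and 15.9% and 26.9% in the MLL-named lists. Active distal regions chosen in the same way gave 73.2%, 29.6% and 46.5%, and 66.3%, 27.2% and 42.3%.

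Every H3K4me1 list was then shortened to its 49595 best peaks, the length of the shortest. Primed regions chosen in replicate 3 numbered 6056 and were touched at 41.8% in the RAS-named list and at 25.6% and 29.6% in the MLL-named lists. Those chosen in replicate 4 numbered 6146, with 40.2% against 23.8% and 28.8%. Active distal regions gave 68.2% against 35.8% and 43.0%, and 59.2% against 31.5% and 37.5%. For primed regions the MLL-named share was 0.593 to 0.716 of the RAS-named one over the 4 pairings. For active distal regions it was 0.525 to 0.633. Both classes were read in the same pairings, and the primed ratio was the higher one in each pairing. When H3K27ac of both RAS-named lists sorted the regions, so that the replicate read also took part in the choice, the ratios were 0.628 to 0.845 and 0.510 to 0.628. With the lists as deposited and a single replicate choosing, the ratios were 0.379 to 0.652 and 0.404 to 0.638. There the primed ratio was the lower one where replicate 1 was read and the higher one where replicate 2 was read. The pairings share lists and were not tested, and the part of depth in the gap was not tested.

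**Figure D5:**
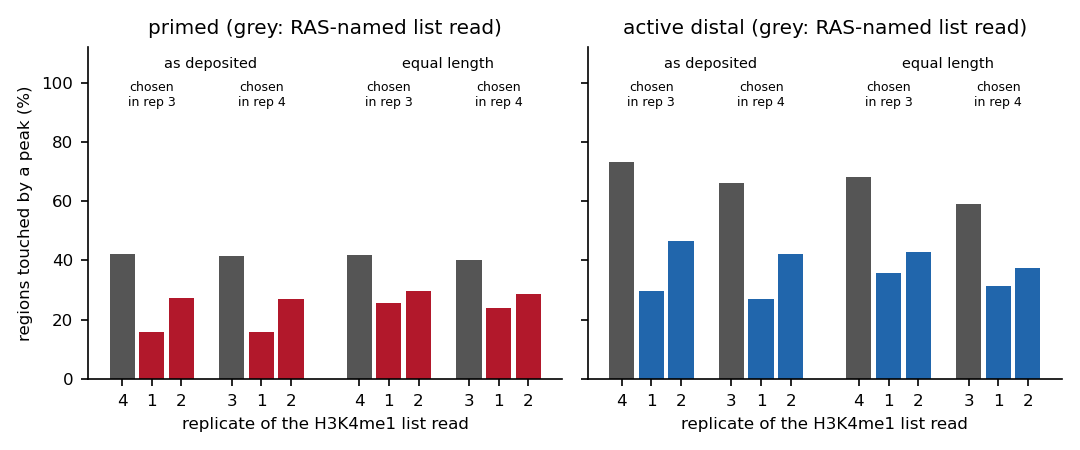
Percentage of primed (left) and active distal (right) regions, chosen with the H3K4me1 and H3K27ac lists of a single RAS-named replicate, that were touched in each of the other H3K4me1 lists, for lists as deposited and lists shortened to 49595 peaks; grey bars are the RAS-named list that did not choose the regions. The grey bar is the tallest in every set of 3.

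The primed regions were spread thinly, with a median of 2 per window of 1 Mb over the 1162 windows that held any. The densest window, chr17:30000001-31000000, held 24 primed regions of 32 distal ones. None of the 24 lay in all 4 H3K79me2 lists, and 8 and 15 were touched by H3K4me1 of replicates 1 and 2. The next, chr17:5000001-6000000, held 16 of 49 distal regions, 8 of them in all 4 H3K79me2 lists. The densest window thus had a lower share in all 4 H3K79me2 lists than the 42.6% of the whole set, and the next a higher one.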

How the data were processed

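ChIP-seq peak lists of 6 marks in mouse lung tumours were analysed, 4 lists per mark. Per the submitters' processing notes, CASAVA 1.7, Bowtie, MACS and deepTools were used and the build was mm9, and the notes give these names with no role or settings. Each deposited list gives a chromosome, start, end, name and a score for each peak. The score is the authors' own value, whose lowest value per list was 50 to 50.04, and it was used only to rank, filter or stratify peaks. Each list belongs to 1 library, so replicates were not pooled in it. The reference tables at hand were of GRCm38, and peaks passed the last GRCm38 gene on 10 of 19 autosomes, so no gene was named, no sequence was read, and positions are given as in the files, counted from 1.

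Peaks were merged, intersected and measured with Python 3.11.15 and numpy 2.4.6, and scipy 1.17.1 gave the intervals. A region was touched if at least 1 bp lay under a peak, and distances were edge to edge. The overlap steps were tested on simulated data against a base-by-base count. H3K79me2 and H3K9me3 shares were compared by exact sign-flip permutation over 4 lists, with the list as block because both region classes were read in the same list. All other comparisons are descriptions. Named regions were the 4 widest touched by both or by neither MLL-named H3K4me1 list or by both MLL-named H3K27ac lists, the 2 farthest from and 2 nearest to active regions, those at the thresholds and the 2 densest windows. The members, classes and tests were chosen with earlier results of these data known. The alternatives were a score of 100 or more, 50% cover, no gap closing, 500 bp minimum, 5 kb from H3K4me3, 1 kb from H3K27ac, lists of equal length, a RAS-named H3K4me1 score of 100 or more, no block and each replicate left out. Added after seeing the data were the weighting by width and score, the choice by a single replicate, and the rule with list names exchanged, with and without the H3K27ac list of replicate 2, and leaving out single H3K79me2 and H3K9me3 lists with the regions kept. Depth per library is unknown and the input samples were not used.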

Additional observations from a re-analysis of the deposited data

Results flagged for a closer look

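The H3K9me3 list of replicate 4 lay far from the other 3 in all 3 region classes. It touched 3.35% of primed, 5.47% of one-list distal and 12.9% of active distal regions, while the share of primed regions in replicates 1 to 3 was 0.0286% each. In each class the gap between replicate 4 and the nearest other list, divided by the range of the 4 values, passed Dixon's 95% critical value for 4 samples. The groups examined numbered 6, and the 3 that passed are the same list read in 3 classes, so they count as 1 event. Chance passes about 1 in 20 groups. Replicate 4 had the longest H3K9me3 list, with 11244 peaks against 5224 to 8533 in the others. Among primed regions its share was 1.59% under 500 bp and 17.1% at 2000 bp or more. What sets this list apart was not tested.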

How the results depend on the processing

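Over 124 alternative values, 84 kept their direction and side of the threshold or moved by less than the replicate spread, 33 moved further and 7 reversed. The number of primed regions was 2018 with peaks scored 100 or more, 6292 without gap closing, 1477 at 500 bp or more, 1885 with lists of equal length and 1173 with RAS-named H3K4me1 scores of 100 or more. It ranged from 3509 to 13224 with each replicate left out, with 13167 and 13224 without replicates 3 and 4. Mean H3K4me1 retention was 15.5% when 50% of the region had to be covered, 55.7% at 500 bp or more and 57.8% with stronger H3K4me1, and 21.3 to 47.0% with a replicate left out. Its difference from active distal regions, -8.38 points as reported, reversed to 2.86 with 50% cover and to 6.54, 4.63 and 7.92 with active distal regions at the width, score, and width and score make-up of the primed ones. It was -3.44 with scores of 100 or more, -3.41 without gap closing, -2.05 at 500 bp or more, -10.3 at 5 kb from H3K4me3, -6.93 at 1 kb from H3K27ac, -5.8 with equal lists and -2.68 with stronger H3K4me1, and -16.3 to -7.89 with a replicate left out.

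The H3K27ac difference, -17.3 points as reported, was -42.4 without replicate 2 and reversed to 7.55 without replicate 1, the ends of its range. The H3K9me3 difference reversed to 0.0187 points with 50% cover (exact permutation p = 1) and was -0.00789 points with replicate 4 left out of the lists and of the choice of regions. With the regions kept and only the replicate 4 list left out, it was 0.00733. The median distance to an active region was 7480 bp without gap closing, 12416 bp at 5 kb from H3K4me3, 11025 bp at 1 kb from H3K27ac, 8574 bp with equal lists and 9119 bp with stronger H3K4me1, and 7631 to 9727 bp with a replicate left out. The near minus far retention was 6.78 points with 50% cover, 28.9 at 500 bp or more, 31.4 with stronger H3K4me1, 8.39 at 5 kb from H3K4me3, and 7.93 to 22.0 with a replicate left out. With the list names exchanged, mean retention (then read in the RAS-named lists) was 78.6% and its difference -17.5 points. The H3K79me2 difference reversed to -20.7 points with the names exchanged, and was 10.2 points if the H3K27ac list of replicate 2 was also left out. It was positive under the other alternatives run, 10.7 points without replicate 3 and 14.1 without replicate 4, when 1 RAS-named list chose the regions. The cause of these changes was not tested. With no replicate block, the differences stayed at 22.6 and -2.37 points. The exact permutation p was then 0.0286 for H3K79me2 (0.0571 adjusted) and 0.914 for H3K9me3. Without the block, both shares read in a list are treated as independent, which they are not. Replicate numbers tie lists of different marks only by number.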

Other observations

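The rule was also applied with the list names exchanged, as a step added after seeing the data. Of 10813 regions covered in both MLL-named H3K4me1 lists, 1550 met the criteria with no H3K27ac peak in either MLL-named list. RAS-named H3K4me1 peaks touched 80.1% of them in replicate 3 and 77.0% in replicate 4, and RAS-named H3K27ac peaks touched 63.7% and 57.4%. Of all 10813 regions, the same lists touched 86.9% and 80.5% with H3K4me1 and 75.1% and 69.8% with H3K27ac, so the members lay below the whole set in each. H3K79me2 touched 54.7%, 57.2%, 59.0% and 52.8% of the members in replicates 1 to 4, and 67.8%, 68.6%, 72.5% and 70.4% of all 10813 regions. Here the active distal regions, 1295 with H3K27ac in both MLL-named lists, had the higher H3K79me2 shares, at 65.4%, 72.9%, 83.4% and 84.9%. The order of primed and active distal regions in H3K79me2 was thus the opposite of that found with the RAS-named lists. The H3K27ac list of replicate 2, whose peaks touched H3K79me2 in 82.7% of cases, takes part in both classes of the exchanged rule. Without it, 2787 primed and 2480 active distal regions were chosen, and H3K79me2 touched 62.1%, 67.8%, 74.5% and 71.6% of the former and 54.6%, 57.0%, 62.3% and 61.2% of the latter. The primed share was then the higher one, the order found with the RAS-named lists. Leaving the list out moved regions touched by it alone into the primed class, so this order is no independent reading. Against all 10813 regions, the primed share was lower in replicates 1 and 2 and higher in replicates 3 and 4.

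These values are limited by the peak lists. No read depth or signal stands behind an absent peak, the lists differ in length and peak width, and the tumour genotype of each library rests on list names alone. Primed regions are mostly short and weakly scored, 66.4% under a score of 100, and 42.0% and 41.5% of those chosen with a single RAS-named replicate were touched by H3K4me1 in the other.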
